A study of Mus musculus with 4 samples.

Results

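A list of 10 transcription factors known for holding mouse embryonic stem (ES) cells in the pluripotent state was followed through the knockdown of Atad2, and of these Klf2 alone passed the test, with more transcript in both si-Atad2 libraries than in both si-ctrl libraries. The factors were Pou5f1 (Oct4), Sox2, Nanog, Esrrb, Klf2, Klf4, Klf5, Tbx3, Tfcp2l1 and Zfp42 (Rex1). They were taken as a list of named genes without a cut on any measured value, but with earlier results of these data known. All 10 were found among the 21005 genes to which a transcript value could be given. Transcript levels were measured by paired-end sequencing of libraries made from total RNA in 4 samples of 46C cells, a mouse ES line with a GFP reporter in the neural gene Sox1. All 4 samples carried the same TAP-tag knock-in at Atad2, in cells derived from 1 chosen clone, and were grown without feeder cells on gelatin in medium with serum and LIF, so none of the libraries represents untagged cells. The 2 si-ctrl samples had received a scrambled siRNA and the 2 si-Atad2 samples an siRNA against Atad2, a nuclear ATPase with a bromodomain that binds acetylated histones. Which of the designed anti-Atad2 siRNAs went into which library is not given in the sources used here. The study describes each RNA sample as sequenced repeatedly, so the replicates of a group may be repeat sequencing of 1 RNA and not separate transfections, and the p-values may measure technical spread only.

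In the pluripotency network, Oct4 and Sox2 bind DNA together at an octamer next to a SOX site, and Nanog joins them at many of the same enhancers. Esrrb, the Klf proteins, Tbx3, Tfcp2l1 and Rex1 belong to the naive state of the early epiblast, which LIF supports in culture through Stat3, and the Klf proteins recognise CACCC boxes through zinc fingers. The factors bind one another's regulatory regions, and several can stand in for one another in self-renewal assays.

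Upstream sequence is shown for 4 of the factors, for the following reasons. Klf2 and Klf4 are related genes of which the first changed and the second did not pass the test. Nanog holds matches to the letters that Oct4 and Sox2 recognise, and Zfp42 holds a match to those of Oct4 but not of Sox2. Each run gives the 250 bases before the RefSeq transcription start, 5′ to 3′ on the gene's own strand, from the GRCm38.p6 build. Capitals mark every match on either strand to the octamer core ATGCAAA, the SOX core CATTGT or the CACCC box, which reads GGGTG where it lies on the opposite strand.
Klf2, chr8:72318812-72319061, plus strand: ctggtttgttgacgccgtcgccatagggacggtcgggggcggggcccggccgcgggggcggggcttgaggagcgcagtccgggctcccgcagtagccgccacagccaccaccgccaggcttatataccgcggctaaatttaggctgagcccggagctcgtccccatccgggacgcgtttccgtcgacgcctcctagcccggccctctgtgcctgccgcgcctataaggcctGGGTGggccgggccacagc
Klf4, chr4:55532476-55532725, minus strand: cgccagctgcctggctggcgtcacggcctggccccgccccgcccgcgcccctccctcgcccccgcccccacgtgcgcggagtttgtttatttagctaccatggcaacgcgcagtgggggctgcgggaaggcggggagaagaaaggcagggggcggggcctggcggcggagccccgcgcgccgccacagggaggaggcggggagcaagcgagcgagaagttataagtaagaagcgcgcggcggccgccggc
Nanog, chr6:122707239-122707488, plus strand: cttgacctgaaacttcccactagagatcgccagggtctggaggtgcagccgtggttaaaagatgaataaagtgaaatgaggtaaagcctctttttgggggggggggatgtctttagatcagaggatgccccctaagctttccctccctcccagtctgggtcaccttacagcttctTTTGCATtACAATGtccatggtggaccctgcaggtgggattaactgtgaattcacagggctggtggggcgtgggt
Zfp42, chr8:43307010-43307259, minus strand: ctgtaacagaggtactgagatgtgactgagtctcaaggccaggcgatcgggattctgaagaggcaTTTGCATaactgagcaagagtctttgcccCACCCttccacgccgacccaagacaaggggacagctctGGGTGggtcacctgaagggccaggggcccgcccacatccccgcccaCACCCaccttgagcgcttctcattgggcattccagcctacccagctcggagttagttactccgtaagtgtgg

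The Klf2 window held 1 CACCC box, read on the minus strand from -19 to -15 before the start, and the Klf4 window held none of the motifs. Both windows were rich in CpG, with 29 CpG in Klf2 and 32 in Klf4, against 3 in Nanog and 9 in Zfp42. In Nanog the octamer core from -75 to -69 lay 1 base from the SOX core that began at -67, both on the minus strand. Zfp42 had the octamer core on the minus strand from -185 to -179 and 3 CACCC boxes. RefSeq upstream sequence was matched for 8 of the 10 factors, the 2 others being Klf5 and Tbx3. Counting every listed start, the octamer core was in a window of 3 factors (Sox2, Nanog, Zfp42), the SOX core in 2 (Pou5f1, Nanog) and the CACCC box in 5 (Pou5f1, Nanog, Esrrb, Klf2, Zfp42). Of all 32851 upstream windows of the same length, from 27025 gene symbols, 4.12% held the octamer core, 10.7% the SOX core and 52% the CACCC box. These shares are per window, whereas a factor was counted if any of its windows matched, so the units differ. The Esrrb core AAGGTCA, searched on both strands as well, was in no window of the 8 factors and in 4.08% of all windows.

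Levels are given in FPKM (fragments per kilobase of transcript and per unit of mapped fragments), which allows genes of different length to be set side by side. Each replicate pair had been normalised on its own, so that the within-pair ratio is the comparison the tables were made for. The change is given as the log2 ratio of FPKM + 1, si-Atad2 minus si-ctrl, which is 0 where the libraries are equal and which understates changes of genes near 1 FPKM. The ratios of both pairs were tested together by limma over the 10325 genes with a mean of at least 1 FPKM, with Benjamini-Hochberg adjustment over all of them and a threshold of 0.05. An exact permutation test of 2 against 2 libraries cannot give a two-sided p below 0.333, so the test leans on spread shared across genes. Atad2 itself stood at 34.1 and 36.0 FPKM in the si-ctrl libraries, against 10.1 and 13.0 FPKM in the si-Atad2 libraries, and had the lowest log2 ratio of all genes tested (-1.53, SE 0.077, limma adjusted p = 4.2e-06). In all, 218 genes passed, or 2.11% of those tested, with 171 higher (1.66%) and 47 lower (0.455%) in si-Atad2. Pair 1 was the more widely spread of the pairs, with an interquartile range of log2 ratios over genes of 0.21 against 0.15 in pair 2.

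In the si-ctrl libraries the factors ran from rank 23 or 22 (Pou5f1) to rank 2808 or 2788 (Tfcp2l1) among 21005 genes by level. Pou5f1 was the highest at 792 ± 20.5 FPKM (SD, n = 2), followed by Nanog at 335 ± 4.16, Zfp42 at 296 ± 1.21, Sox2 at 193 ± 4.66, Esrrb at 120 ± 1.29 and Klf4 at 68.6 ± 0.70 FPKM. Klf5 at 52.6 ± 1.55 and Klf2 at 50.6 ± 3.57 FPKM did not differ beyond their spread. Tbx3 followed at 32.7 ± 0.80 and Tfcp2l1 at 22.3 ± 0.10 FPKM. In the si-Atad2 libraries the order changed at 2 places. Klf2, at 81.7 ± 5.65 FPKM (SD, n = 2), stood above Klf4 at 65.4 ± 3.50 and Klf5 at 51.0 ± 5.97 FPKM. Nanog at 283 ± 42.0 and Zfp42 at 292 ± 0.80 FPKM could no longer be ordered.

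**Figure D1:**
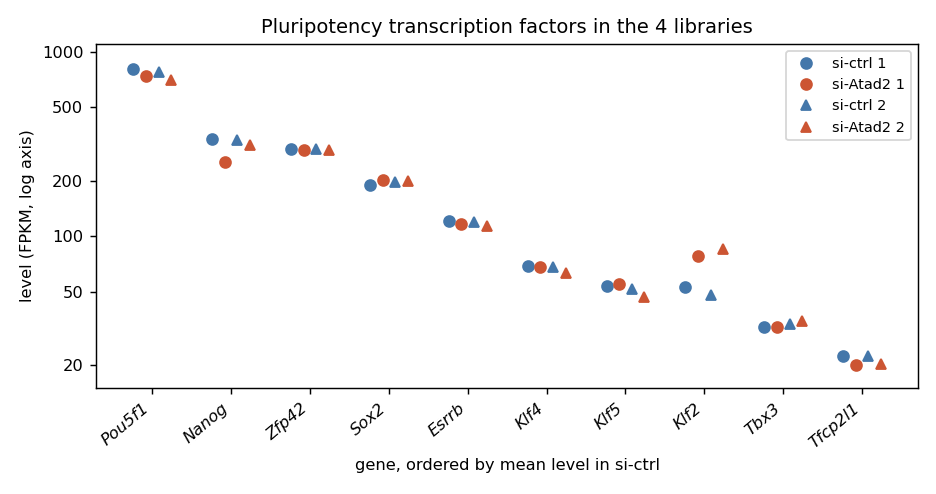
Level of each of the 10 transcription factors in the 4 libraries, in FPKM on a log axis, with the genes ordered by their mean in si-ctrl; circles are replicate 1, triangles replicate 2, blue si-ctrl and red si-Atad2. Klf2 shows both si-Atad2 points, at 77.7 and 85.7 FPKM, well above its si-ctrl points, and Nanog shows 1 low si-Atad2 point at 253 FPKM.

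Klf2, a zinc finger factor of the naive network, is encoded by a compact gene at chr8:72319033-72321656 on the plus strand (GRCm38, GENCODE annotation), and a single transcript row of 1816 bases carried its value. It measured 53.1 FPKM in si-ctrl 1 against 77.7 FPKM in si-Atad2 1, then 48.1 FPKM in si-ctrl 2 against 85.7 FPKM in si-Atad2 2. Both si-Atad2 libraries lay above both si-ctrl libraries, by 46.1% in pair 1 and 78.1% in pair 2. The deposited 95% bounds of the 4 values, which cover the estimate within a library, did not touch across the groups: 51.5 to 54.8 and 46.4 to 49.8 FPKM in si-ctrl, 75.6 to 79.7 and 83.4 to 87.9 FPKM in si-Atad2. On the log2 scale the ratios were 0.54 and 0.82, with a mean of 0.68 (SE 0.073, 95% interval 0.52 to 0.84, limma adjusted p = 0.0010). Klf2 had the 17th highest log2 ratio of the 10325 genes. Its abundance rank among all genes moved from 1046 to 608 in pair 1 and from 1203 to 526 in pair 2. The replicates within a group differed by -0.14 in si-ctrl and 0.14 in si-Atad2 on the log2 scale, in opposite directions and by less than either ratio.

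Klf2 has a GC-rich transcript (61.6% GC). Across genes, the log2 difference between the si-ctrl libraries fell with transcript GC (Spearman's rho -0.55 over 10325 genes that share libraries). For the within-pair log2 ratios, which were the ones tested, rho with GC was -0.29 in pair 1 and 0.09 in pair 2. With the GC trend taken out of each pair, the mean log2 ratio of Klf2 was 0.70 (limma adjusted p = 0.00999). The call was lost when the library si-ctrl 2 was left out (log2 ratio 0.61, limma adjusted p = 0.09), when genes of every level were tested (adjusted p = 0.41) and when transcript rows shorter than 200 bases were summed in as well (adjusted p = 0.088), although in the last 2 settings its own ratio stayed at 0.68. It held when any 1 of the 3 other libraries was left out, in fits where the group left with 1 library is assumed to vary like the other.

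Klf4 and Klf5, the other Klf factors of the naive network, bind the same CACCC boxes. Klf4 (chr4:55527143-55532466, minus strand) measured 69.1 and 67.9 FPKM in si-ctrl 1 and si-Atad2 1, and 68.1 and 62.9 FPKM in si-ctrl 2 and si-Atad2 2. Its si-Atad2 values were just under both si-ctrl values, with a mean log2 ratio of -0.07 (95% interval -0.20 to 0.06, limma adjusted p = 0.63). Klf5 (chr14:99298691-99315036, plus strand) measured 53.6 and 55.2 FPKM in pair 1 and 51.5 and 46.8 FPKM in pair 2, si-ctrl first. The Klf5 groups overlapped, and the mean log2 ratio was -0.05 (95% interval -0.19 to 0.10, limma adjusted p = 0.78). Neither interval reached that of Klf2, but the difference between the 3 genes' ratios was not itself tested. Added together, Klf2, Klf4 and Klf5 gave 176 and 168 FPKM with the scrambled siRNA (replicates 1 and 2) and 201 and 195 FPKM with the siRNA against Atad2. Klf2 made up 30.2% and 28.7% of that sum in the si-ctrl libraries and 38.7% and 43.8% in the si-Atad2 libraries. Thus it was the lowest of the trio in both si-ctrl libraries and the highest in both si-Atad2 libraries. In si-ctrl, however, its deposited bounds (51.5 to 54.8 and 46.4 to 49.8 FPKM) overlapped those of the main Klf5 row (51.7 to 55.0 and 49.5 to 52.9 FPKM). The ratio of Klf2 to Klf4 went from 0.77 to 1.14 in pair 1 and from 0.71 to 1.36 in pair 2.

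**Figure D2:**
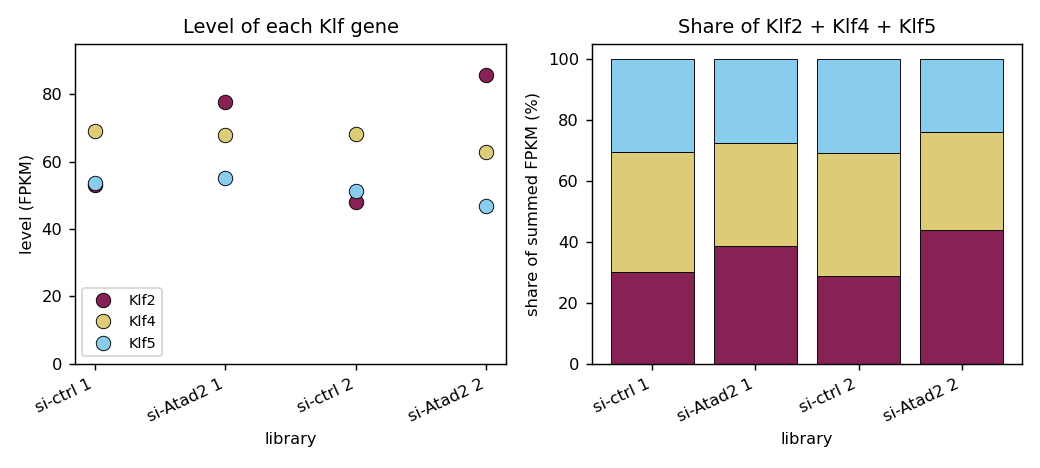
Left, level of Klf2, Klf4 and Klf5 in FPKM in each of the 4 libraries; right, the share of each gene in their summed FPKM, in percent. Klf2 is lowest of the 3 in both si-ctrl libraries, with bounds that overlap those of Klf5. It is highest in both si-Atad2 libraries, where its share reaches 38.7% and 43.8%.

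Of the core trio, Sox2 was close to level and Pou5f1 and Nanog had lower values in si-Atad2 without passing the test. Pou5f1 (chr17:35506018-35510772, plus strand), which encodes the POU factor Oct4, measured 807 and 739 FPKM in si-ctrl 1 and si-Atad2 1, and 778 and 701 FPKM in si-ctrl 2 and si-Atad2 2. The groups did not overlap, and the differences were alike in size in the pairs, at -8.39% and -9.86%. The mean log2 ratio of -0.14 (SE 0.052, 95% interval -0.25 to -0.02) had an unadjusted p of 0.023 and a limma adjusted p of 0.22. Most of the Pou5f1 signal sat on the 1353-base transcript, with 84.2% to 85.0% in each library, and 14.9% to 15.6% was put on a row of only 313 bases, with wide deposited bounds (108 to 132 FPKM in si-ctrl 1). Pou5f1 has processed copies elsewhere in the genome and an antisense neighbour, Gm19553, and how shared reads were divided is not given in the sources used here.

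Nanog (chr6:122707489-122714633, plus strand), the homeodomain factor of the trio, measured 338 FPKM in si-ctrl 1 but 253 FPKM in si-Atad2 1, against 332 FPKM in si-ctrl 2 with 313 FPKM in si-Atad2 2. The si-ctrl libraries were close together, and of the si-Atad2 libraries the first was far below them and the second a little below. Pair 1 had a log2 ratio of -0.42 and pair 2 one of -0.09, and their mean was -0.25 (SE 0.073, 95% interval -0.41 to -0.09, unadjusted p = 0.0053, limma adjusted p = 0.11). The si-Atad2 libraries differed from each other by 0.30 on the log2 scale, across tables that were scaled separately, which is more than the ratio in pair 2. Without the library si-Atad2 1 the log2 ratio was -0.10 (limma adjusted p = 0.55), and without si-Atad2 2 it was -0.40 (adjusted p = 7.9e-06), where the spread comes from the si-ctrl libraries and the lone si-Atad2 library is assumed to vary like them. Nanog too has processed copies, so that its value holds an uncertain part.

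Sox2 (chr3:34650405-34652461, plus strand), the partner of Oct4 on DNA, measured 190.1 and 200.2 FPKM in pair 1 and 197 and 198 FPKM in pair 2, si-ctrl first. Both si-Atad2 values were higher, but the mean log2 ratio was only 0.04 (95% interval -0.08 to 0.17, limma adjusted p = 0.76). Sox2 lies inside the long noncoding gene Sox2ot on the same strand. Its rows, of 2456 and 812 bases, were named by the only coding gene in the locus, and whether either belongs to Sox2ot was not checked. The 2456-base row carried 99.98% of the value or more in every library. The ratio of Pou5f1 to Sox2 was 4.24 in si-ctrl 1 and 3.69 in si-Atad2 1, and 3.95 in si-ctrl 2 and 3.53 in si-Atad2 2, and so was lower in si-Atad2 in both pairs. The ratio of Nanog to Pou5f1 went from 0.42 to 0.34 in pair 1 and from 0.43 to 0.45 in pair 2, and so moved in opposite directions.

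Esrrb, an orphan nuclear receptor that can replace Nanog in self-renewal assays, lies at chr12:86361117-86521628 on the plus strand. It measured 121 and 116 FPKM in pair 1 and 119 and 113 FPKM in pair 2, si-ctrl first, with almost all signal on the 3907-base transcript. The groups did not overlap, and the mean log2 ratio was -0.07 (95% interval -0.19 to 0.06, limma adjusted p = 0.60). Tfcp2l1 (chr1:118627945-118685168, plus strand), a grainyhead-family factor downstream of LIF and Stat3, measured 22.3 and 19.9 FPKM in pair 1 and 22.4 and 20.3 FPKM in pair 2. Its si-Atad2 values were lower by a like amount in both pairs, and the mean log2 ratio of -0.14 (95% interval -0.29 to 0.00, unadjusted p = 0.052) had a limma adjusted p of 0.32. Replicates of Tfcp2l1 differed by 0.01 and 0.03 on the log2 scale, less than its ratio in either pair.

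Zfp42 (chr8:43295063-43306980, minus strand), whose product Rex1 is a widely used mark of naive cells, was the steadiest of the factors. It measured 295 and 292 FPKM in pair 1 and 296 and 293 FPKM in pair 2, si-ctrl first. The mean log2 ratio was -0.02 (95% interval -0.14 to 0.10, limma adjusted p = 0.92), and turned to 0.02 when each library was rescaled to the same total. Tbx3 (chr5:119670669-119684724, plus strand), a T-box repressor, measured 32.1 and 32.1 FPKM in pair 1 and 33.3 and 34.5 FPKM in pair 2. Its groups overlapped, and the mean log2 ratio was 0.02 (95% interval -0.12 to 0.16, limma adjusted p = 0.89). Within Tbx3 the signal was divided between rows of 5082, 5022 and 4654 bases. The 5022-base row was near 0 in si-ctrl 1 and at 1.59, 1.72 and 0.80 FPKM in si-Atad2 1, si-ctrl 2 and si-Atad2 2, with no common direction between the groups, while the sum over the rows varied little.

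**Figure D3:**
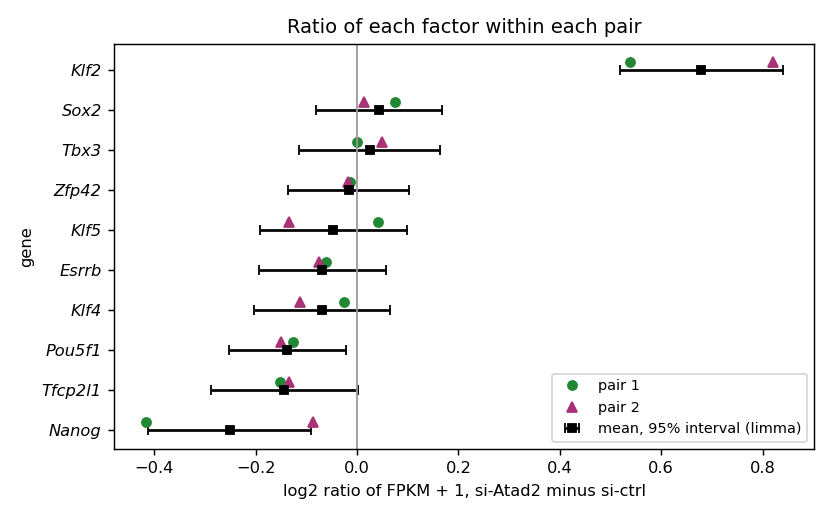
Log2 ratio of FPKM + 1, si-Atad2 minus si-ctrl, for each of the 10 factors; green circles are pair 1, purple triangles pair 2, and black squares with bars the mean and its 95% interval from limma. The interval of Klf2, from 0.52 to 0.84, lies apart from those of the other 9, and Nanog has the widest gap between its pairs (-0.42 and -0.09).

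Counted as a list, 1 of the 10 factors was called, against 2.11% of all genes tested, and 3 had an unadjusted p under 0.05 (Klf2, Nanog, Pou5f1), against 1673 of 10325 genes. Both si-Atad2 libraries lay under both si-ctrl libraries for 6 factors (Pou5f1, Nanog, Esrrb, Klf4, Tfcp2l1, Zfp42), and over them for 2 (Sox2, Klf2). Over all genes tested the same was true of 26.8% and 22.3%. The median log2 ratio of the factors was -0.06, and -0.01 over all genes. The summed level of the 10 factors was 1981 and 1945 FPKM with the scrambled siRNA (replicates 1 and 2) and 1853 and 1868 FPKM with the siRNA against Atad2. Pou5f1 was the largest single part. The sum over all genes was lower in si-Atad2 as well, at 267170 and 265440 FPKM against 273740 and 272360 FPKM in si-ctrl. With each library rescaled to the same total, the median log2 ratio of the factors was -0.02.

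**Figure D4:**
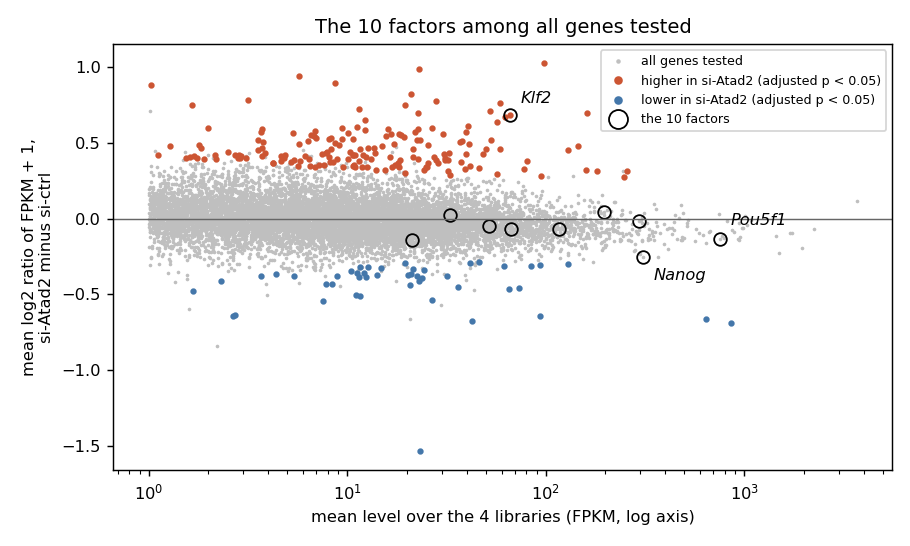
Mean log2 ratio of FPKM + 1, si-Atad2 minus si-ctrl, against the mean level in FPKM on a log axis for the 10325 genes tested; red and blue points passed the test as higher or lower in si-Atad2, and open circles mark the 10 factors. Klf2 sits among the red points at 0.68, and the other 9 factors lie among the genes that were not called.

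The 3 genes closest to a core factor in level over the 4 libraries, by Euclidean distance in log2(FPKM + 1), were Eef2, Eif5a and Tubb5 for Pou5f1 (distances 0.13, 0.15 and 0.18) and Dstn, Hspa5 and St13 for Sox2 (0.07, 0.09 and 0.13). Ybx3 and Uqcr10 were among the 3 closest to Nanog (0.17 and 0.25). Because these genes were picked on the same library values, their log2 ratios are drawn towards those of the factors by the selection. The translation factors Eef2 and Eif5a had mean log2 ratios of -0.12 and -0.13, and Tubb5 had 0.03, beside the -0.14 of Pou5f1. Ybx3, an RNA-binding protein, had -0.23 and Uqcr10 had -0.14 beside the -0.25 of Nanog.

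Among 16 partners of the network, all tested, none was called by limma, against 2.11% of all genes tested. An unadjusted limma p under 0.05 was found for 5 of them, against 1673 of the 10325 genes tested. The highest log2 ratios were those of Gbx2 and Foxd3. Gbx2, a homeobox target of LIF and Stat3, measured 14.3 and 26.1 FPKM in pair 1 but 14.3 and 15.6 FPKM in pair 2, si-ctrl first. Its mean log2 ratio of 0.47 (limma adjusted p = 0.088) came mostly from pair 1, and in pair 2 the log2 ratio was 0.11. Foxd3, a forkhead factor, measured 9.19 and 13.0 FPKM in pair 1 and 8.07 and 9.57 FPKM in pair 2, and its mean log2 ratio was 0.34 (adjusted p = 0.059). At the other end stood Prdm14, a repressor of the primed state, and Nacc1, a BTB protein, with mean log2 ratios of -0.21 and -0.18 (adjusted p = 0.21 and 0.19 by limma). The median over the partners was -0.00.

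Of 14 genes known as targets of the core factors, 13 had a value and were tested. None was called by limma, against 2.11% of all genes tested. For 3 of the 13 the unadjusted limma p was under 0.05, against 1673 of the 10325 genes tested. Lin28a, which binds the let-7 precursor, measured 87.1 and 75.3 FPKM in pair 1 and 91.9 and 80.5 FPKM in pair 2, si-ctrl first. Fgf4, the growth factor under an Oct4-Sox2 enhancer, measured 103 and 92.4 FPKM in pair 1 and 105 and 89.5 FPKM in pair 2. These had the lowest mean log2 ratios of the targets, -0.20 and -0.19 (limma adjusted p = 0.12 and 0.13). For each, both si-Atad2 libraries lay under both si-ctrl libraries, as they did for 26.8% of all genes tested. Kdm4c and Tdgf1 had the highest, at 0.09 each, and their pairs pointed in opposite directions. The median log2 ratio of the targets was -0.07.

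Family relatives of the 10 factors were counted as well. Of 37 relatives, 35 had a value, 25 were tested, and 2 were called, both SOX genes higher in si-Atad2, where 1.66% of all genes tested were called higher. Sox3, a close relative of Sox2, was low, at 1.53 and 2.80 FPKM in pair 1 and 1.23 and 2.40 FPKM in pair 2, and its mean log2 ratio was 0.59 (limma adjusted p = 0.0041). Sox4 measured 7.05 and 10.1 FPKM in pair 1 and 6.87 and 8.58 FPKM in pair 2, and its mean log2 ratio was 0.37 (limma adjusted p = 0.034). The lowest ratios in the families were those of Sox12 (-0.15) and of Esrra (-0.14), a receptor related to Esrrb, and neither was called. The median log2 ratio of the tested relatives was 0.07, and 6 had an unadjusted limma p under 0.05, against 1673 of the 10325 genes tested. Both SOX calls were lost on leaving out either si-ctrl library (limma adjusted p from 0.15 to 0.58), without a filter and with rows of all lengths. That of Sox4 held in 6 of 15 alternatives, and was also lost without the pairing (adjusted p = 0.075), with the GC trend removed (0.084), by median of ratios (0.052), without a trend (0.052) and on the main transcript (0.12).

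The markers of other cell states were then read in the same libraries. Of the primed state markers all 4 were tested and none was called by limma, against 2.11% of all genes tested. An unadjusted limma p under 0.05 was found for 1 of them, against 1673 of the 10325 genes tested. Dnmt3b, a DNA methyltransferase, lay between 69.6 and 76.5 FPKM and the homeobox gene Otx2 between 48.2 and 53.9 FPKM, with mean log2 ratios of -0.03 and 0.04. Pou3f1 had a mean log2 ratio of -0.10, and Fgf5, at 1.52 to 2.27 FPKM, one of -0.25. Of 8 primitive endoderm markers 3 were tested and none was called. Their summed level was 7.71 and 8.40 FPKM with the scrambled siRNA and 7.87 and 7.98 FPKM in si-Atad2, with the defining Gata6, Sox17 and Foxa2 under 1 FPKM in every library. Of the 3 tested, Dab2 and Gata4 had mean log2 ratios of -0.03 and -0.04 and Cubn of 0.06. Of 6 trophoblast markers 3 were tested and Tfap2c was called lower, where 0.455% of all genes tested were called lower. It measured 24.2 and 15.7 FPKM in pair 1 and 23.9 and 19.4 FPKM in pair 2, si-ctrl first (mean log2 ratio -0.44, limma adjusted p = 0.018). Tfap2c, an AP-2 factor, is also expressed in naive ES cells, and the defining Cdx2, Elf5 and Gata3 were under 1 FPKM in every library. The summed level of the 6 genes was 28.3 and 28.0 FPKM with the scrambled siRNA and 19.6 and 23.6 FPKM in si-Atad2, most of it Tfap2c, and its part in the other changes was not tested. The call of Tfap2c was lost on leaving out either si-ctrl library (limma adjusted p = 0.49 and 0.38), without the pairing (0.058), with the GC trend removed (0.065), on the main transcript (0.090), with rows of all lengths (0.21) and without a filter (0.47), and held in 8 of 15 alternatives. The 2 others, Eomes and Krt7, had mean log2 ratios of -0.13 and 0.05.

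Of 6 neural and mesoderm markers 3 were tested and none was called, against 2.11% of all genes tested. The mean log2 ratios were -0.21 for Pax6, -0.06 for Nes and 0.17 for T. In level Nes was the highest of them, at 3.39 to 3.78 FPKM, and Sox1, Mixl1 and Mesp1 were under 1 FPKM in every library. Their summed level was 8.50 and 8.74 FPKM with the scrambled siRNA and 8.16 and 8.12 FPKM in si-Atad2. Of 6 fibroblast markers 2 were tested and none was called, with mean log2 ratios of -0.07 for Thy1 (5.56 to 6.75 FPKM) and -0.00 for Col1a1, and the summed level was 8.48 and 7.71 FPKM with the scrambled siRNA and 7.16 and 8.49 FPKM in si-Atad2. Lum was listed at 0 in every library, and Col3a1 and Postn were under 1 FPKM. The labelled cell type thus carried all 10 factors at 19.9 FPKM or more in every library. The tested endoderm, trophoblast, neural, mesoderm and fibroblast markers, Tfap2c apart, stayed under 7 FPKM. The primed state markers did not all stay so low. Dnmt3b lay at 69.6 to 76.5 FPKM, Otx2 at 48.2 to 53.9 FPKM and Pou3f1 at 13.9 to 16.7 FPKM, with Fgf5 at 1.52 to 2.27 FPKM. In bulk samples, fewer cells expressing a gene and less transcript per cell cannot be told apart.

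**Figure D5:**
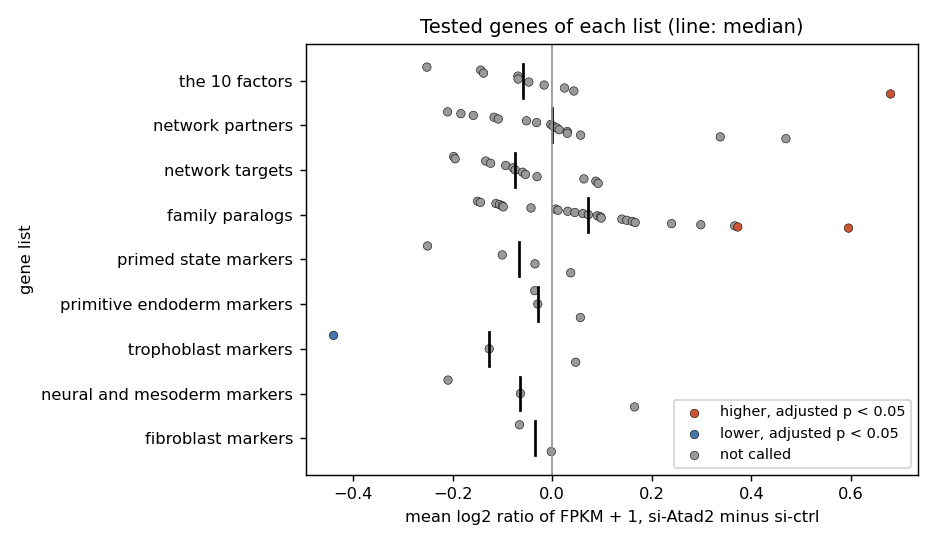
Mean log2 ratio of FPKM + 1, si-Atad2 minus si-ctrl, of every tested gene in each list, 1 point per gene; red passed the test as higher, blue as lower, grey was not called, and the black line is the list's median. Klf2, Sox3 and Sox4 are the red points and Tfap2c the blue one.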

How the data were processed

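Levels of transcripts were taken from 4 RNA-seq libraries (paired ends of 50 cycles, TruSeq RNA), 2 si-ctrl and 2 si-Atad2. The authors deposited FPKM per transcript with 95% bounds, from Cuffdiff runs made separately on each replicate pair. The submitters' processing notes name TopHat, Cuffdiff and mm9 without versions, whereas the loci in the tables match GRCm38. The tables give no read counts, so depth is unknown. The deposited comparison tables, which hold the authors' fold changes, p-values and q-values, were not used.

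The 59120 rows were named by a GENCODE transcript (release M21) of the same length within 3 bases in the locus (14980 rows), or else by the only coding gene there (29671 rows), and 14469 stayed unnamed. Rows under 200 bases (6632) and rows not marked OK in a library (720) were dropped, and FPKM were summed per gene. How fragments were counted by strand is not given in the sources used here.

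The within-pair log2 ratios of FPKM + 1 were fitted with limma 3.58.1 in R 4.3.3, with a trend on the mean level, 1 residual degree of freedom per gene and a median of 11.2 in total after sharing spread across genes. The fit was tested on simulated data. Pairs follow the separate Cuffdiff runs. Same-numbered libraries did not deviate together from their group means (Pearson's r -0.03 over 10325 genes). Alternatives changed the pseudocount (0.1, 5), scaling, filter (none, 5 FPKM), block, trend, GC, row lengths and libraries. Tested fits that left out 1 library gave up the pairing as well.

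Named genes were the 10 factors, the called genes and the 2 highest and 2 lowest log2 ratios of each other list, and the 3 genes nearest in level to each core factor, of which 1 is not reported here. The factors and lists were chosen with earlier results of these data known. Alternatives for the other named genes and the Klf share were added after seeing the data.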

Additional observations from a re-analysis of the deposited data

How the results depend on the processing

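The number of called genes was 218 at first. It was 424 after rescaling to the same total, 97 with the GC trend removed with the replicate block, 12 with rows of all lengths, 0 without a filter (1803 at an unadjusted p under 0.05) and 0 over single transcripts (1745). Without the replicate block it was 153, with 152 of them shared. The fits that left out 1 library were also made without the block, so 153 is the count to set beside theirs. Leaving out 1 library gave between 11 (without si-ctrl 2) and 1950 (without si-Atad2 2), with 12 without si-ctrl 1 and 741 without si-Atad2 1. The cause was not tested.

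Klf2 stayed between 0.54 and 0.82 on the log2 scale and was called in 12 of 15 tested alternatives, 0.0043 being its limma adjusted p without the replicate block. It missed the threshold at 0.68 without a filter (0.41) and with rows of all lengths (0.088), and at 0.61 without si-ctrl 2. Nanog passed only without si-Atad2 2, at -0.403 in a range of -0.416 to -0.0873 when 1 library or pair was left out. No other factor passed in any of them. Leaving out gave -0.164 to 0.0704 for Klf5 and -0.0248 to 0.0741 for Tbx3, the sign turning without si-Atad2 2, and rescaling turned Zfp42 to 0.0198. The median over the factors ran from -0.08 to -0.02. Removing the block also ended the calls of Sox4 and Tfap2c (adjusted p = 0.075 and 0.058) and of no other named gene.

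Ratios near 0 of other named genes also turned: Dnmt3b to 0.00095 and Col1a1 to 0.0292 on rescaling, Col1a1 to 0.0019 by median of ratios and 0.0241 with the GC trend removed, and Dab2 to 0.11 on its main transcript. Leaving out 1 library or pair gave -0.0451 to 0.23 for Kdm4c, -0.0841 to 0.158 for Otx2, -0.113 to 0.044 for Dnmt3b, -0.166 to 0.11 for Dab2, -0.0983 to 0.0281 for Gata4, -0.0972 to 0.191 for Krt7, -0.116 to 0.11 for Col1a1 and -0.232 to 0.10 for Thy1.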
